A study of Mus musculus with 8 samples.

Results

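Lyz2, C1qa, C1qb, C1qc, Csf1r, Cd14, Mpeg1 and Ccr2 are genes of monocytes and macrophages, and their RNA was followed here in sorted haematopoietic stem and progenitor cells of mouse bone marrow. They were taken by gene symbol from a list set with earlier results of these data known, and make up 8 of the 23284 symbols in the files. Cells were Lineage- Sca-1+ c-Kit+ (LSK) cells, about 10000 per extract, from C57BL/6 male mice of 12 to 13 weeks obtained from SLC. After an overnight fast of more than 14 hours, mice were injected intravenously on 7 days. There were 2 libraries from mice given glucose (2 g/kg; letters A and B), 2 from mice given the same glucose dose together with a lipid emulsion (Intralipid 20%, 6 mL/kg; letters H and I), and 4 from mice given phosphate-buffered saline (PBS; letters H, I, J and K). Femur and tibia marrow was collected on day 8, and mice ate freely during the day. No transgene or mutation is named in the labels. Libraries are labelled as biological replicates, but no label says whether a library came from 1 mouse or from a pool, so p-values measure the spread between these libraries. PBS H and I were set against glucose with lipid and PBS J and K against glucose. This assignment rests on shared letters and a name tag for H and I, and on elimination for J and K.

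Monocytes leave the marrow for the blood and feed part of the macrophage pool of tissues, while resident marrow macrophages clear nuclei and dying cells and sit close to stem cells. LSK cells lie upstream of both and are selected to lack the surface proteins of mature lineages. The 8 genes cover secreted effectors of innate defence (lysozyme and the chains of complement C1q), receptors that read growth factor, bacterial products and chemokine (Csf1r, Cd14 and Ccr2), and an intracellular pore protein (Mpeg1).

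Values are FPKM, the mapped fragments of a gene scaled by transcript length and library size. Approximate depth, read from the steps between low values, was 6400000 to 9240000 fragments per library, and 11186 to 11771 genes reached 1 FPKM. The stem and progenitor markers Ly6a (Sca-1, 295.4 to 423.6 FPKM), Kit (164.1 to 197.8 FPKM) and Cd34 (424.1 to 567.1 FPKM) were well expressed in all 8 libraries. Replicate 1 of glucose with lipid stood apart before any test. Its Pearson correlation with the other libraries over 11931 genes was 0.924 to 0.939, against 0.949 to 0.967 among the other 7. Every one of the 19 neutrophil markers in the files was highest there, with a summed level of 66970 FPKM against 188 to 506 FPKM in the other 7 libraries. Itgam, the Mac-1 chain of myeloid cells, reached 44.5 FPKM there against 3.13 to 8.55 FPKM elsewhere, and Cd3e of T cells 3.78 against 0 to 0.606 FPKM elsewhere. The part of this difference in the results below was not tested. The tests of the 8 genes that involve glucose with lipid are therefore given with and without that library.

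On GRCm38 (mm10; GENCODE vM21) the 3 C1q genes lie side by side on the minus strand of chromosome 4: C1qb at chr4:136880129-136886187, C1qc at chr4:136889804-136893065 and C1qa at chr4:136895917-136898803, within 18675 bases. Lyz2 is at chr10:117277331-117282321 (minus strand), close to its near copy Lyz1 at chr10:117287797-117292868. Mpeg1 is at chr19:12460779-12465283 (plus) and Ccr2 at chr9:124101950-124113557 (plus). All 8 genes are protein-coding, and a value covers the exons of the gene.

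Promoter sequence is shown for the most abundant gene and for the neighbouring pair C1qb and C1qc, whose log2(FPKM + 1) values had a Pearson r of 0.982 over the 8 libraries and of 0.817 without replicate 1 of glucose with lipid. RefSeq (GRCm38.p6) gave a window of 250 bases upstream of the start for 5 of the 8 genes, Lyz2, C1qb, C1qc, Mpeg1 and Ccr2. Printed here, 5′ to 3′ on the gene's own strand, is the stretch of that window outside the GENCODE gene. Capitals mark GAGGAA or its reverse complement TTCCTC, a core of the sites that PU.1, the master factor of myeloid genes, is known to bind.
C1qb promoter, chr4:136886201-136886450, minus strand: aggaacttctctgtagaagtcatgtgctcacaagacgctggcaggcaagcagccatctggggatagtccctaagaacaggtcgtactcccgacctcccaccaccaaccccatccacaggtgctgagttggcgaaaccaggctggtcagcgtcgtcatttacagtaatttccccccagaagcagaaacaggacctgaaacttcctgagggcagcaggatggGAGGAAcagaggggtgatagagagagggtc
C1qc promoter, chr4:136893066-136893164, minus strand: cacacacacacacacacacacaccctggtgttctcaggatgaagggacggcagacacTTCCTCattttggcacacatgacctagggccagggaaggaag
Lyz2 promoter, chr10:117282322-117282522, minus strand: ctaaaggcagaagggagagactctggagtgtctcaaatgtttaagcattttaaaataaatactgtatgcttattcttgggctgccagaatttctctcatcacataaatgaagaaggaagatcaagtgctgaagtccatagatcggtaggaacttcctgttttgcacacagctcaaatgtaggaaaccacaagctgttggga
The C1qb match begins 30 bases upstream of the RefSeq start, and the C1qc match begins 193 bases upstream on the opposite strand. Searched on both strands over the full 250 bases, the letters GAGGAA occurred in C1qb and C1qc of these 5 genes and in 23.3% of 32841 mouse promoters of the same length. The letters TTNNGNAA, a loose form of the C/EBP site, occurred in Lyz2, C1qc and Ccr2 and in 36.9% of promoters. Of the 250 bases, 49 in Lyz2, 151 in C1qc and 233 in Ccr2 lie inside the GENCODE gene. The C1qc match to TTNNGNAA begins 81 bases upstream of the RefSeq start, inside that part. The Lyz2 match begins 55 bases upstream and reaches into it. The AP-1 letters TGANTCA occurred in none of the 5 windows and in 6.8% of promoters. None of these matches overlapped another, and a match of letters is a description only.

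Lyz2, which encodes lysozyme M, the enzyme that cuts bacterial cell walls and is made by macrophages, monocytes and neutrophils, was by far the most abundant of the 8. It measured 412.7 and 481.3 FPKM in glucose libraries, 4622 and 449.2 FPKM in glucose with lipid, 375.6 and 409.1 FPKM in the PBS pair H and I, and 343.6 and 397.9 FPKM in the PBS pair J and K. Replicate 1 of glucose with lipid was 11.3 times the mean of the other 7, and each of the other 3 treated libraries was also above each of the 4 PBS libraries. By level, Lyz2 ranked 7 among all symbols in replicate 1 of glucose with lipid and 136 to 238 in the other 7 libraries. It made up 92.7% to 96.1% of the summed FPKM of the 8 genes in each library. The near copy Lyz1, the lysozyme of intestinal Paneth cells, was listed at 5.26 FPKM in replicate 1 of glucose with lipid, 0.805 FPKM in replicate 2, 0.129 FPKM in glucose replicate 2 and 0 in the other 5 libraries. The Lyz2 and Lyz1 transcripts agree at 96.0% of 1262 aligned bases, and 15.4% of 50-base windows of Lyz2 also occur in Lyz1, so the split of fragments between them is uncertain. In bulk RNA of this kind, more cells of a type and more RNA per cell cannot be told apart.

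C1qa, C1qb and C1qc encode the chains that assemble into C1q, the recognition part of the classical complement pathway, which macrophages are known to make in quantity. C1qb measured 10.95 and 10.5 FPKM in glucose libraries, 69.3 and 7.72 FPKM in glucose with lipid, 6.14 and 6.90 FPKM in the PBS pair H and I, and 10.2 and 9.44 FPKM in the PBS pair J and K. C1qc measured 9.47 and 9.49 FPKM in glucose libraries, 54.4 and 6.92 FPKM in glucose with lipid, 6.199 and 4.07 FPKM in the PBS pair H and I, and 8.18 and 7.06 FPKM in the PBS pair J and K. For both genes the glucose libraries were above each PBS library by a small margin, and PBS H and I were below PBS J and K without overlap. C1qa, the lowest of the 3, measured 2.64 and 1.87 FPKM in glucose libraries, 21.9 and 4.99 FPKM in glucose with lipid, 1.78 and 1.31 FPKM in the PBS pair H and I, and 3.96 and 3.07 FPKM in the PBS pair J and K. Unlike its neighbours, C1qa was lower in both glucose libraries than in PBS J and K, and both libraries of glucose with lipid were above each PBS library. Replicate 1 of glucose with lipid was 7.82, 7.84 and 7.41 times the mean of the other 7 for C1qa, C1qb and C1qc.

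The C1q chains kept unequal proportions. The ratio of C1qb to C1qc levels in FPKM stayed between 0.991 and 1.69 in the 8 libraries, with 1.27 in replicate 1 of glucose with lipid. The ratio of C1qb to C1qa was 4.15 and 5.63 in glucose libraries, 3.16 and 1.55 in glucose with lipid, 3.44 and 5.25 in PBS H and I, and 2.58 and 3.07 in PBS J and K. The lowest of these, 1.55, belonged to replicate 2 of glucose with lipid, the library in which C1qa was second highest. C1qa rested on few fragments: by the depth estimate, about 118 fragments in replicate 1 of glucose with lipid and about 8 to 39 in each of the other 7.

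Csf1r is the receptor for the growth factors CSF1 and IL-34 and drives survival and differentiation of monocytes and macrophages; the gene lies at chr18:61100598-61132149 (plus strand). Its levels were 2.09 and 3.75 FPKM in glucose libraries, 24.5 and 1.42 FPKM in glucose with lipid, 2.67 and 1.49 FPKM in the PBS pair H and I, and 2.42 and 2.04 FPKM in the PBS pair J and K. Replicate 2 of glucose with lipid held the lowest Csf1r level of all 8, below each of the 4 PBS libraries. Glucose and its PBS libraries overlapped. Exons of Csf1r overlap those of Hmgxb3 on the other strand, which measured 12.2 to 17.95 FPKM, and no source used here states strand-specific counting, so fragments from the overlap cannot be told apart.

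Cd14, the co-receptor that hands bacterial lipopolysaccharide to the Tlr4 complex, lies at chr18:36725067-36726798 (minus strand). It measured 1.601 and 1.37 FPKM in glucose libraries, 12.3 and 0.743 FPKM in glucose with lipid, 0.990 and 0.891 FPKM in the PBS pair H and I, and 0.817 and 1.27 FPKM in the PBS pair J and K. Both glucose libraries were above each PBS library, and replicate 2 of glucose with lipid was the lowest of the 8. Ccr2, the receptor for the chemokine Ccl2 that lets monocytes leave the marrow, measured 0.934 and 1.61 FPKM in glucose libraries, 15.3 and 0.692 FPKM in glucose with lipid, 1.05 and 0.637 FPKM in the PBS pair H and I, and 1.02 and 1.46 FPKM in the PBS pair J and K. Apart from replicate 1 of glucose with lipid, the Ccr2 levels of the groups overlapped in each comparison. That library was 14.5 times the mean of the other 7 for Ccr2, the largest such ratio among the 8 genes, and 11.2 times for Cd14 and 10.8 times for Csf1r.

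Mpeg1 encodes perforin-2, a pore-forming protein that acts on bacteria inside phagocytes. It measured 1.09 and 1.25 FPKM in glucose libraries, 7.64 and 1.16 FPKM in glucose with lipid, 0.618 and 1.11 FPKM in the PBS pair H and I, and 0.328 and 0.253 FPKM in the PBS pair J and K. Glucose libraries were above PBS J and K without overlap, and both libraries of glucose with lipid were above each PBS library, replicate 2 only just. PBS H and I were above PBS J and K, so the control pairs differed in the same sense as glucose did from PBS J and K. The estimate puts Mpeg1 at about 7 to 44 fragments in each library other than replicate 1 of glucose with lipid, which had about 202.

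**Figure D1:**
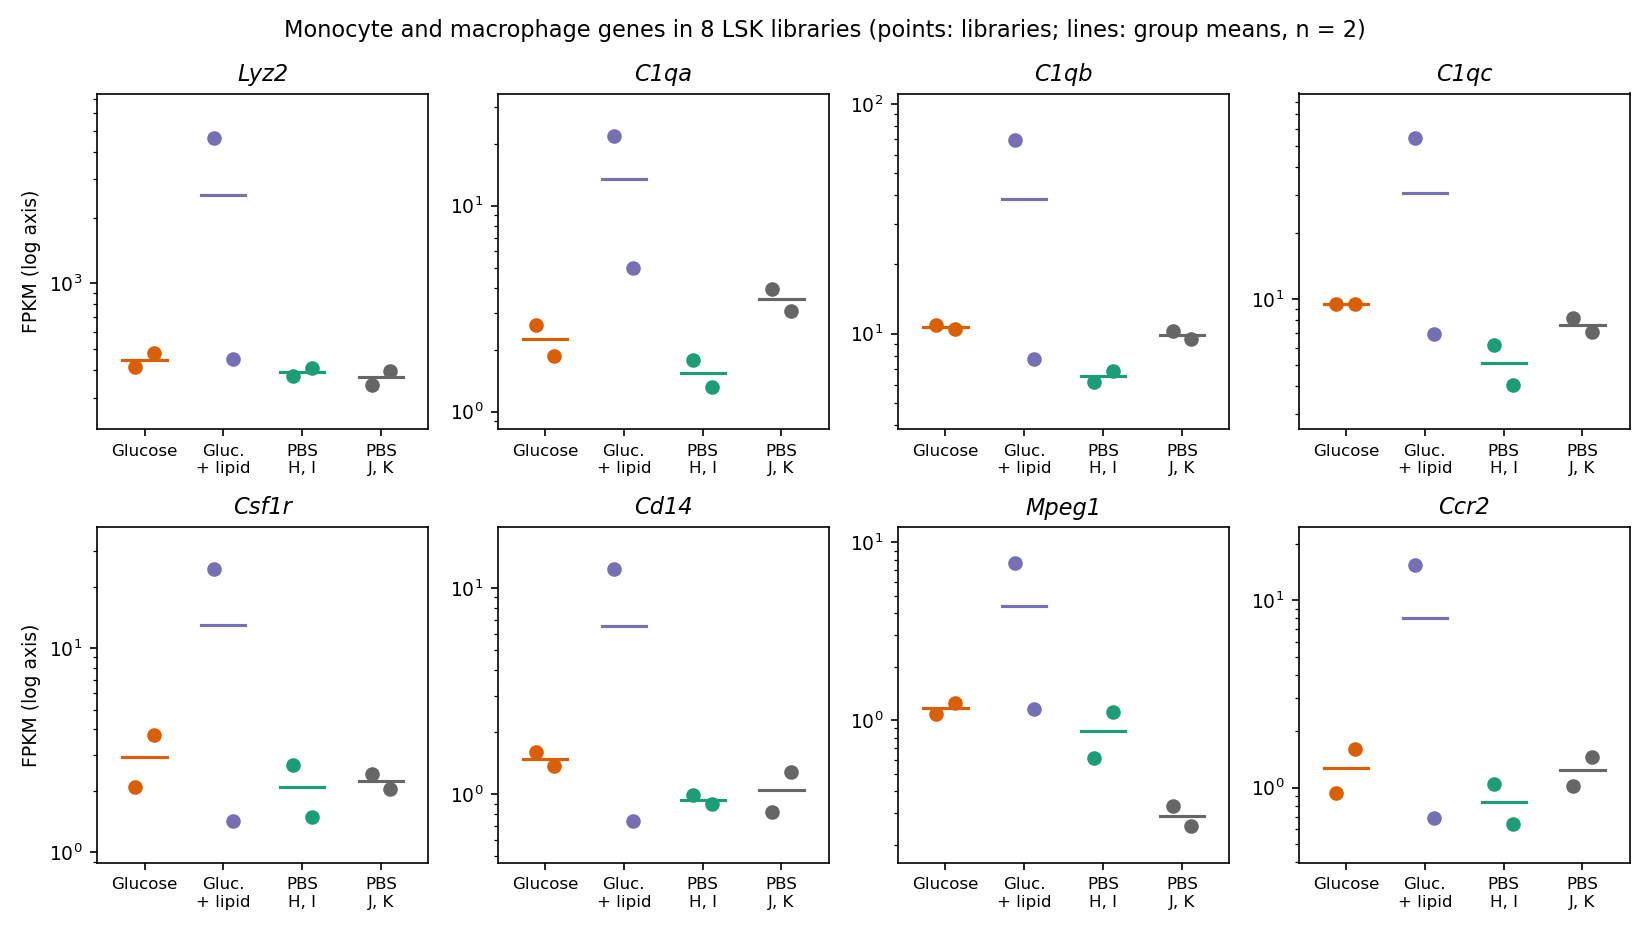
FPKM of the 8 genes on log axes, with a point for each library and a line for each group mean (n = 2). Replicate 1 of glucose with lipid lies far above the other 7 libraries in each panel, from 7.41 times their mean for C1qc to 14.5 times for Ccr2. Among the other 7 libraries the points of Mpeg1 spread the most, over 0.253 to 1.25 FPKM.

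The first comparison asked whether glucose alone changed the 8 genes. Lyz2, C1qb, C1qc, Cd14 and Mpeg1 were higher, and C1qa lower, in both glucose libraries than in both libraries of PBS J and K, but no difference passed the test. How many of all tested genes separated in this way was not counted, so the separation is a description only. In limma on log2(FPKM + 1), with p adjusted by Benjamini-Hochberg over the 11931 genes that had at least 1 FPKM in at least 2 libraries, 0 of the 8 passed 0.05 against PBS J and K. Over all tested genes 0.0922% (11) were called higher and 0.00838% (1) lower. None of the 8 had an unadjusted p under 0.05. Of the 8 log2 differences 7 were above 0, with a median of 0.26 for the 8 and of 0 for all tested genes. Mpeg1 had the largest, 0.75 ± 0.57 (SE; adjusted p = 0.571), on means of 1.17 ± 0.116 FPKM in glucose and 0.291 ± 0.0530 FPKM in the PBS pair J and K (SD, n = 2 each); it was 1.71 with a pseudocount of 0.1, and taking the other PBS pair gave 0.23. C1qa had the only negative value, -0.48 ± 0.54 (adjusted p = 0.719), on means of 2.25 ± 0.545 FPKM in glucose and 3.52 ± 0.627 FPKM in the PBS pair J and K. With PBS H and I in place of J and K the C1qa difference was 0.35, so its sign followed the choice of controls. C1qb and C1qc differed by 0.12 and 0.29, and by 0.64 and 0.79 when set against the other PBS pair. Lists of cell type markers had medians of the same size in this comparison, 0.262 for the 14 stem and progenitor markers (13 above 0), 0.351 for 13 erythroid, 0.251 for 12 dendritic cell and 0.247 for 20 monocyte markers. Medians were -0.033 for 17 marrow macrophage, -0.312 for 7 mast cell and basophil and -0.78 for 15 neutrophil markers. The part of these cell types in the values of the 8 genes was not tested.

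The library of glucose with lipid that stood apart also enters the spread in this fit, since the 4 groups share a single estimate per gene. Without it the standard errors were smaller, 0.12 instead of 0.86 for Lyz2, while the differences between glucose and PBS J and K kept their size. Still 0 of 8 passed, with adjusted p of 0.254 to 0.99 and 1 unadjusted p under 0.05 (Mpeg1), where 0.226% of tested genes were called higher and 0.0419% lower. Lyz2, at 447 ± 48.5 FPKM in glucose and 370.8 ± 38.4 FPKM in the PBS pair J and K (SD, n = 2 each), differed by 0.27 ± 0.12 on the log2 scale in that fit (adjusted p = 0.323).

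Glucose with lipid was compared with PBS H and I. All 8 log2 differences were above 0, from 1.22 for Mpeg1 to 2.21 for C1qa, with a median of 1.62 against 0.011 over all tested genes. None of the 8 passed, where 0.0587% of tested genes (7) were called higher and 0.0168% (2) lower; adjusted p ran from 0.235 to 0.596, and 2 genes, C1qa and C1qc, had an unadjusted p under 0.05. The spread within the pair was as large as its mean: Lyz2 averaged 2536 ± 2951 FPKM in glucose with lipid and 392.3 ± 23.7 FPKM in the PBS pair H and I (SD, n = 2 each). The marker sums were also far higher in replicate 1 of glucose with lipid, but not in the same way in replicate 2. In replicate 2 the neutrophil sum lay between those of PBS H and I. Its monocyte sum was above both, while its Csf1r and Cd14 levels were below both. Neutrophil markers summed to 66970 and 226 FPKM in glucose with lipid and to 188 and 247 FPKM in the PBS pair H and I, with Retnlg, Ifitm6, Mmp25 or Il1b at 0 in PBS libraries and none at 0 in glucose with lipid. Monocyte markers summed to 1699 and 561 FPKM in glucose with lipid and to 414 and 495 FPKM in the PBS pair H and I, and marrow macrophage markers to 680 and 240 FPKM in glucose with lipid and to 191.2 and 191 FPKM in the PBS pair H and I. By median log2 difference, the 20 tested monocyte markers stood at 0.895 (0.067 without replicate 1), the 17 marrow macrophage markers at 1.43 (0.563) and the 15 neutrophil markers at 3.58 (-0.010). None of these markers was called in limma with or without that library. At an unadjusted p under 0.05 there were 6, 10 and 6 of them with all 8 libraries (11.8% of all tested genes) and 2, 6 and 6 without replicate 1 (11.1%). Markers of other cells differed too: the median was 1.74 for 13 erythroid markers (0.531 without replicate 1), 0.874 for 12 dendritic cell markers (0.655) and -1.35 for 7 mast cell and basophil markers (-1.83). Their part in the differences of the 8 genes was not tested.

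Without replicate 1, glucose with lipid was left with a single library, assumed to vary like the other groups, and 5 of the 8 log2 differences were above 0. They ran from -0.32 for Csf1r to 1.24 for C1qa, and their median was 0.21. Again 0 of 8 passed (adjusted p of 0.284 to 0.924), beside 0.0335% of tested genes called higher and 0.0251% lower. Csf1r, Cd14 and Ccr2 turned negative, at -0.32, -0.15 and -0.11, with standard errors of 0.37, 0.31 and 0.35. With all libraries and PBS J and K as controls, C1qa was at 1.38. Without replicate 1 it kept the largest value, 1.24 ± 0.30 (unadjusted p = 0.00363, adjusted p = 0.284). Leaving out replicate 2 instead, so that replicate 1 stood alone for the treatment, gave 8 of 8 called higher, by 2.22 to 3.56 on the log2 scale with adjusted p of 7.89e-05 to 0.0115, where 2.13% of tested genes were called higher and 0.142% lower. The calls thus turned on which of the 2 libraries was used.

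**Figure D2:**
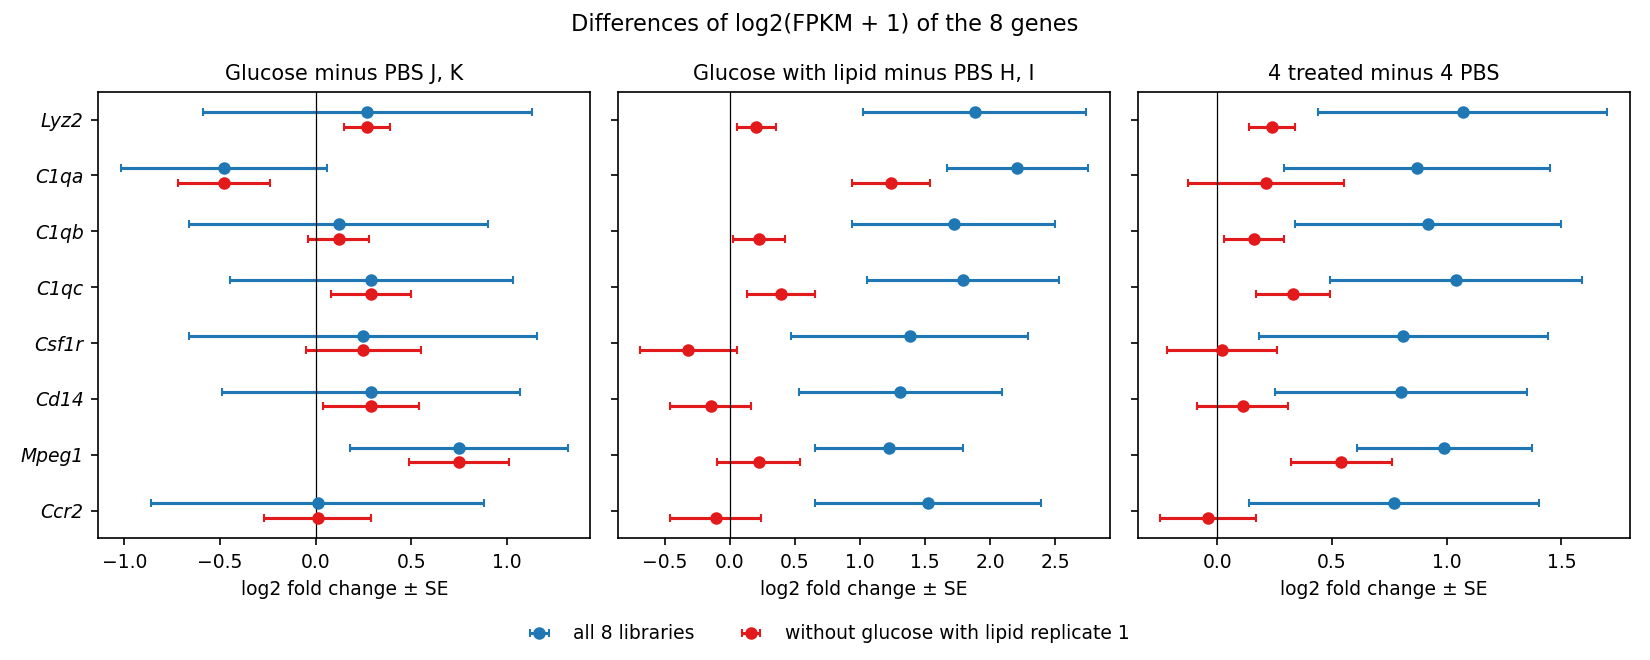
Log2 differences of the 8 genes with their standard errors (limma on log2(FPKM + 1)) in 3 comparisons, with all 8 libraries in blue and without replicate 1 of glucose with lipid in red. In the middle panel the blue points run from 1.22 to 2.21 and the red points from -0.32 to 1.24. No point passed an adjusted p of 0.05.

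The 4 treated libraries were then set together against the 4 PBS libraries, with a term for control set, which gave 8 log2 differences above 0, from 0.77 for Ccr2 to 1.07 for Lyz2 (median 0.895, and -0.007 over all tested genes). None of the 8 passed (adjusted p of 0.395 to 0.661; 1 unadjusted p under 0.05, Mpeg1), where 0.268% of tested genes (32) were called higher and 0% (0) lower; 623 genes were lower at an unadjusted p under 0.05. Without replicate 1 of glucose with lipid the 8 differences ran from -0.04 for Ccr2 to 0.54 for Mpeg1, with a median of 0.185, and 0 of 8 passed beside 0.26% called higher and 0% lower. Each treated library was above each PBS library for Lyz2 only of the 8, a separation that was not counted over all tested genes. The lowest treated value of Lyz2 was 412.7 FPKM and its highest PBS value was 409.1 FPKM. Its difference without the extreme library was 0.24 ± 0.10 (adjusted p = 0.355). Mpeg1 had 0.54 ± 0.22 in the same fit (adjusted p = 0.353).

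The effects of both treatments were compared directly as the difference of glucose with lipid minus PBS H and I and of glucose minus PBS J and K. None of the 8 genes passed (adjusted p of 0.305 to 0.837), where 0.00838% of tested genes were called in each direction. C1qa had the largest value, 2.68 ± 0.76 on the log2 scale (unadjusted p = 0.00835, adjusted p = 0.305), and 1.72 ± 0.38 without replicate 1 of glucose with lipid (adjusted p = 0.271). With the PBS pairs exchanged it was 1.03. For the other 7 genes the value lay between 0.47 and 1.61 with all libraries. Without that library 5 of the 8 values were below 0. With replicate 2 left out instead, 7 of the 8 were called, C1qa at 3.65, beside 1.03% of tested genes called higher and 0.151% lower.

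The control pairs, which differ in no labelled treatment, were also compared. C1qa was lower in PBS H and I, at 1.55 ± 0.332 FPKM against 3.52 ± 0.627 FPKM in the PBS pair J and K (SD, n = 2 each; log2 difference -0.82 ± 0.54, adjusted p = 0.492). C1qb followed with 6.52 ± 0.534 FPKM in the PBS pair H and I and 9.83 ± 0.554 FPKM in the PBS pair J and K (-0.53 ± 0.78, adjusted p = 0.794). C1qc had 5.14 ± 1.502 FPKM in the PBS pair H and I and 7.62 ± 0.796 FPKM in the PBS pair J and K (-0.51 ± 0.74, adjusted p = 0.791). The pairs did not overlap for any of the 3 chains, and Mpeg1 differed in the other direction (0.52 ± 0.57). The share of all tested genes without overlap between the pairs was not counted. At an unadjusted p under 0.05 in limma there were 0 of the 8 genes, beside 17.2% of all tested genes. Replicate 1 of glucose with lipid, which is in neither PBS pair, enters the spread behind this count. Without it the differences of the 3 chains kept their size and their standard errors were smaller. The count of 0 therefore does not show that the 8 genes differed less than genes at large. None of the 8 passed, and 0.0419% of tested genes were called higher in PBS H and I and 0.00838% lower. Without replicate 1 of glucose with lipid the adjusted p of C1qa, C1qb and C1qc were 0.167, 0.176 and 0.266, again under no call, beside 0.0922% called higher and 0.0251% lower. Marrow macrophage markers summed to 191.2 and 191 FPKM in the PBS pair H and I and to 241.3 and 240.4 FPKM in the PBS pair J and K, with a median log2 difference of -0.40. Other lists differed more between the pairs: mast cell and basophil markers had a median of 2.06 (7 of 7 above 0), erythroid markers 0.734 (12 of 13 above 0, 2 called higher) and megakaryocyte markers -0.478 (1 of 9 above 0). The part of these cell types in the C1q differences was not tested.

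Within glucose with lipid, the 8 genes were set beside lists of related genes, as replicate 1 minus replicate 2 on the log2(FPKM + 1) scale and with no test. The 8 genes differed by a median of 2.97, the 20 tested monocyte markers by 2.24, the 17 marrow macrophage markers by 1.65 and the 15 neutrophil markers by 7.60, against 0.00812 for all 11931 tested genes. Replicate 1 had the highest level of the 8 libraries in 8 of the 8 genes, 28 of 29 monocyte markers and 29 of 31 macrophage markers. So it had in 13 of 13 B cell, 11 of 13 erythroid and 10 of 13 T and NK cell markers. Counts were lower for dendritic cell (10 of 18), mast cell and basophil (4 of 8) and megakaryocyte markers (3 of 9). These counts include markers too low to be tested, whereas the share over tested genes only was 15.3%. The list of stem and progenitor markers went the other way from the 8 genes, with a median of -0.40 and 0 of 14 genes highest in replicate 1. Ly6c2, the Ly6C antigen of inflammatory monocytes, was listed at 393 FPKM in replicate 1 and at 3.81 to 8.43 FPKM in the other 7 libraries. More abundant monocyte markers differed less. Lst1 was at 289.1 FPKM in replicate 1 and 138.4 to 249.2 FPKM elsewhere, Psap at 207.1 and 109.5 to 159.5 FPKM, and Ctss at 152.8 and 35.6 to 69.97 FPKM. Vcam1, the adhesion molecule of marrow macrophages and stroma, had 49.7 FPKM in replicate 1 and 3.78 to 7.17 FPKM elsewhere. The most abundant marrow macrophage markers differed less. Apoe was at 213.9 FPKM in replicate 1 and 89.65 to 107.1 FPKM elsewhere, and Cd68 at 76.1 and 22.5 to 53.6 FPKM. Hmox1 was at 99.85 and 15.02 to 30.4 FPKM, and Pld3 at 42.3 and 23.01 to 34.04 FPKM. S100a8, a calcium-binding protein that fills neutrophils, had 35390 FPKM there and 81.8 to 240.5 FPKM elsewhere, so the ratio of Lyz2 to S100a8 was 0.131 in that library and 1.43 to 5.05 in the other 7.

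**Figure D3:**
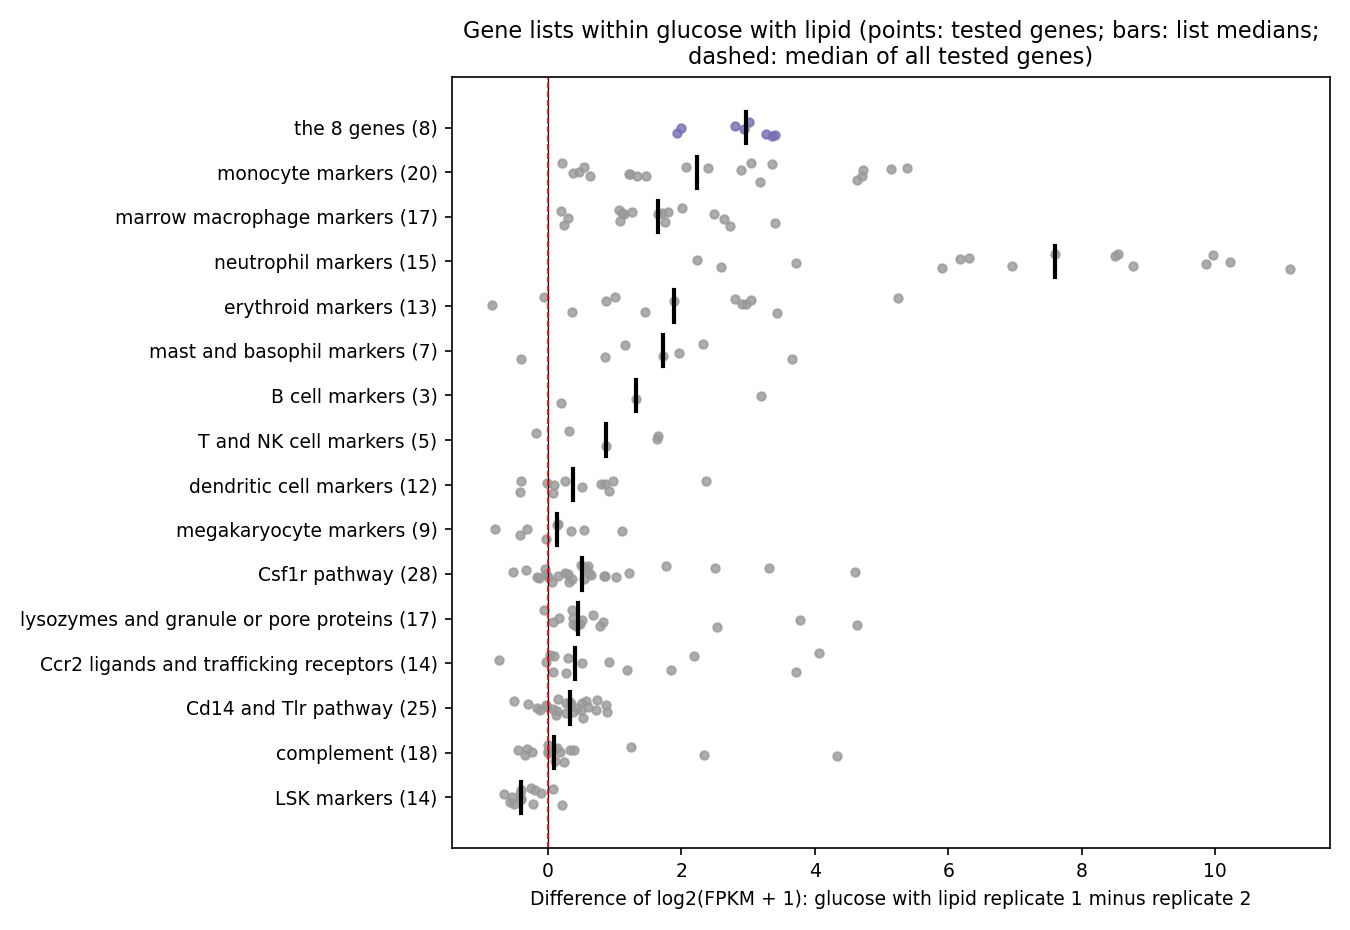
Difference of log2(FPKM + 1) between replicates 1 and 2 of glucose with lipid for each tested gene (points) of 16 lists, with list medians as black bars and the median of all tested genes as a dashed line. The 8 genes have a median of 2.97, neutrophil markers 7.60 and stem and progenitor markers -0.40.

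Pathway partners of the 8 genes did not pass the test in either treatment comparison with all 8 libraries: 0 of 18 complement genes, 0 of 28 genes around Csf1r signalling, 0 of 25 around Cd14 and Toll-like receptors, 0 of 14 Ccr2 ligands and trafficking receptors and 0 of 17 lysozyme, granule and pore genes were called in limma. At an unadjusted p under 0.05 there were 4, 3, 2, 2 and 3 such genes in glucose against PBS J and K, beside 14.9% of all tested genes. In the comparison of glucose with lipid with its PBS pair there were 2, 4, 2, 3 and 3, beside 11.8%. List medians lay between -0.007 and 0.144 on the log2 scale for glucose and between 0.102 and 0.244 for glucose with lipid, against 0 and 0.011 over all tested genes. Without replicate 1 the range for glucose with lipid was -0.099 to 0.06. Complement partners in the files included Calr, a C1q-binding chaperone, at 517.1 to 819.9 FPKM, and C1qbp, a mitochondrial protein named for C1q binding, at 264.4 to 456.3 FPKM, both highest in PBS J. The proteases C1ra and C1s that act beside C1q were at 5.71 to 9.001 FPKM and 0.0449 to 0.372 FPKM. The complement component C3 had 35.7 FPKM in replicate 1 of glucose with lipid and 0.437 to 1.16 FPKM in the other 7.

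Around Csf1r, its ligand Csf1 was at 5.41 FPKM in replicate 1 of glucose with lipid and 1.76 to 3.43 FPKM in the other 7, and the other ligand Il34 was listed at 0 to 0.0950 FPKM. Tyrobp (DAP12), an adaptor that myeloid receptors signal through, was at 998.6 FPKM in that library and 88.9 to 137.3 FPKM elsewhere, and Fcer1g, a related adaptor, at 481.5 and 71.7 to 89.7 FPKM. Dok2, a signalling inhibitor, showed no such gap, at 90.0 FPKM there and 85.5 to 113.2 FPKM elsewhere. Of the Cd14 pathway, Tlr4, the signalling receptor for lipopolysaccharide, was at 7.56 FPKM in replicate 1 and 5.06 to 11.5 FPKM elsewhere, and its partner Ly96 (MD-2) at 33.6 and 19.1 to 52.1 FPKM. The Ccr2 ligand Ccl2 was at 2.58 FPKM in replicate 1 and 0.749 to 12.2 FPKM elsewhere, highest in PBS I, and Ccl12 was listed at 0 in all 8 libraries. Ccr1, a chemokine receptor of myeloid cells, was at 27.3 FPKM there and 0.228 to 1.39 FPKM elsewhere. Some of the genes in this and the preceding paragraph (C1ra, C1s, Csf1, Il34, Tlr4, Ly96, Ccl2, Ccl12 and Ccr1) fall outside the rule for naming genes and were chosen after their values were seen.

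**Figure D4:**
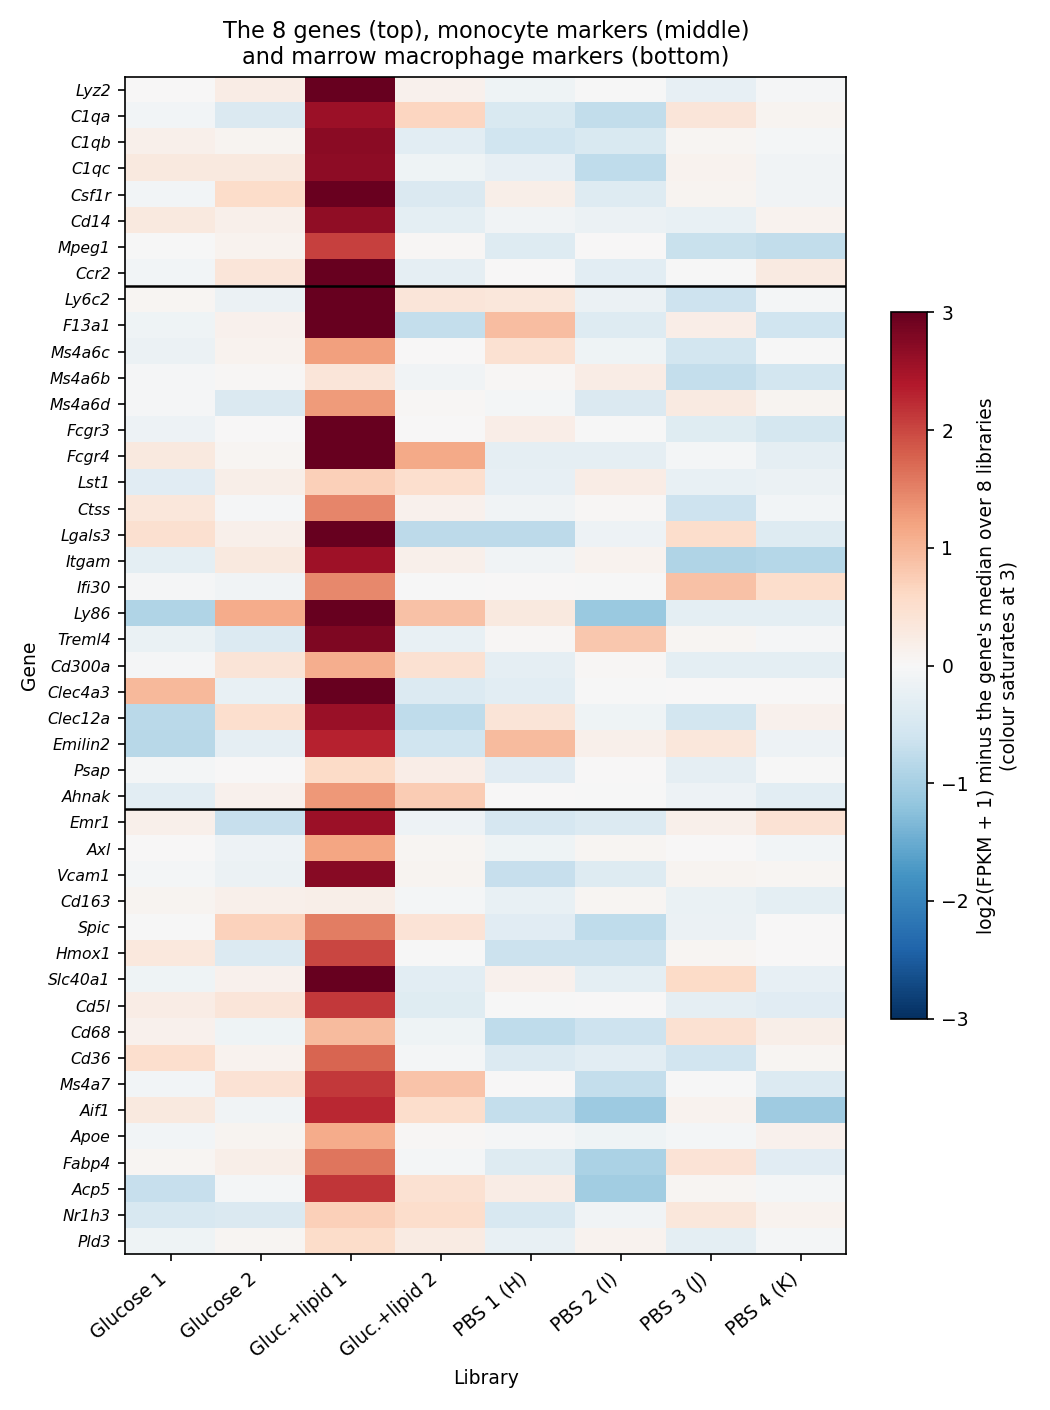
Log2(FPKM + 1) of the 8 genes and the tested monocyte and marrow macrophage markers in each library, minus the median of the gene over 8 libraries; colours saturate at a difference of 3. The column of replicate 1 of glucose with lipid is red for nearly every gene, and the other 7 columns are mostly pale.

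Over the 8 libraries the genes resembled each other. Their 28 pairs had Pearson r of log2(FPKM + 1) from 0.787 to 0.986. Over the 7 libraries without replicate 1 of glucose with lipid, r ran from -0.34 to 0.817 with a median of 0.25, and 9 pairs were negative. These values share libraries and depth and are a description of 8 and 7 points. The non-member genes with the pattern most like Lyz2 over 8 libraries were Anxa2 (r = 0.998), Anxa1 (0.995) and Trem1 (0.993), and for Csf1r they were Tyrobp (0.982), Sfpi1 (0.980), the older symbol for PU.1, and C3 (0.976). For Ccr2 they were Tyrobp (0.993), Plk3 (0.991) and Cd300lb (0.990), for Cd14 G0s2 (0.993), Plbd1 (0.988) and Lilrb3 (0.986), and for Mpeg1 Pld4 (0.992), Tbc1d8 (0.991) and Itgam (0.985). C1qa was closest to Slfn2 (0.983), C1qb to Plbd1 (0.987) and C1qc to Plbd1 (0.983), while the mean of the 3 chains was closest to Cyba (0.989), Vcam1 (0.987) and Gata1 (0.987). Without replicate 1 of glucose with lipid, r of the 3 closest genes of each profile with that profile was 0.589 to 0.943, with 0.589 for Trem1 and Lyz2. The closest genes picked over the 7 libraries shared 0 of 27 entries with those picked over 8. Sfpi1 itself was at 154.7 FPKM in replicate 1 of glucose with lipid and 81.9 to 92.3 FPKM in the other 7 libraries.

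Ordered by mean over the 7 other libraries, the levels were Lyz2 (409.9 ± 45.4 FPKM), C1qb (8.84 ± 1.91), C1qc (7.34 ± 1.92), C1qa (2.81 ± 1.31), Csf1r (2.27 ± 0.795), Cd14 (1.10 ± 0.321), Ccr2 (1.06 ± 0.363) and Mpeg1 (0.830 ± 0.421; all SD, n = 7). Lyz2 and C1qb, C1qc and C1qa, and Csf1r and Cd14 differed by more than the sum of their SDs. C1qb and C1qc, C1qa and Csf1r, Cd14 and Ccr2, and Ccr2 and Mpeg1 did not, and the SDs span libraries of 4 groups. The coefficient of variation over the 7 libraries was smallest for Lyz2, 11.1%, and largest for Mpeg1, 50.7%.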

How the data were processed

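RNA was profiled in 8 libraries of sorted mouse LSK cells. Per the labels, SMART-Seq HT served for cDNA and Nextera XT for libraries. The submitters' processing notes name TopHat2 2.0.13, Bowtie2 2.2.3, SAMtools 1.0, Cuffnorm 2.2.1 and mm10. The values deposited by the authors are FPKM with no log transformation. No header names the unit, which was read from the values and from the use of Cuffnorm. For the annotation and for library scaling in Cuffnorm, the answer is: not given in the sources used here.

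From these files, log2(FPKM + 1) was tested with limma 3.58.1 (R 4.3.3, mean-variance trend, 2-sided) on the 11931 genes that reached 1 FPKM in 2 or more of 8 libraries. A single fit of 4 groups of 2 had 4 residual degrees of freedom, and a second fit set 4 treated against 4 PBS libraries with a term for control set. P-values were adjusted by Benjamini-Hochberg over all tested genes at 0.05. Adding 1 FPKM before taking the log shrinks the differences of genes with low levels. The filter kept 8 of the 8 genes, though Cd14 reached 1 FPKM in 4 libraries and Mpeg1 and Ccr2 in 5. Whether groups overlapped was checked for the 8 genes only, and the share of all tested genes without overlap was not counted.

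Depth was estimated from low values of 3168 genes with a single transcript, assuming fragments of 200 bases. Between 72.0% and 76.8% of those values came within 0.1 of a whole number of fragments, so fragment numbers are approximate, no interval was computed, and fragments without molecular identifiers do not count molecules. Of 314 entries in 16 gene lists, 303 were in the files. The 8 genes and the lists were chosen with earlier results of these data known. Genes named are the 8, list genes called in a treatment comparison or among the 4 highest of a list by mean FPKM, the 3 genes most like each of the 8, and the gate and lineage genes, with exceptions stated; Retnlg, Ifitm6, Mmp25 and Il1b are further exceptions, named for their zeros. Alternatives were another pseudocount, no filter, no trend, rescaled FPKM, other PBS controls, a replicate block and each library left out. The procedure was tested on simulated data. Tables used pandas 2.3.3 and numpy 2.4.6 under Python 3.11.15, figures matplotlib 3.10.9 and alignments Biopython 1.88.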

Additional observations from a re-analysis of the deposited data

Results flagged for a closer look

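C1qa differed in opposite directions in the comparisons with its own controls: both glucose libraries were below PBS J and K (2.64 and 1.87 FPKM against 3.96 and 3.07 FPKM), and both libraries of glucose with lipid were above PBS H and I (21.9 and 4.99 FPKM against 1.78 and 1.31 FPKM). The difference of the effects was tested in limma and was 2.68 ± 0.76 on the log2 scale, with an unadjusted p of 0.00835 and an adjusted p of 0.305. Without replicate 1 of glucose with lipid it was 1.72 ± 0.38 (adjusted p = 0.271), and without replicate 2 of glucose with lipid it was 3.65 (adjusted p = 0.00591). With the PBS pairs exchanged it was 1.03. Across its alternatives the log2 difference between glucose and PBS changed sign with PBS H and I as controls (0.35), and the control pairs themselves differed by -0.82. No cause was tested.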

How the results depend on the processing

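Over the 560 log2 differences recomputed for the 8 genes under the alternatives, 529 kept their direction and side of the threshold. With 1 library left out, 15 changed direction and 15 passed the threshold, and the 15 that passed were all without replicate 2 of glucose with lipid. Of the 240 values under the other alternatives, the only change of direction or call was C1qa in glucose against PBS, which was 0.35 with PBS H and I as controls. In size, 27 of the 240 moved by over 1.5 times, 10 with the other PBS pair, 5 with all 4 PBS libraries, 8 with a pseudocount of 0.1 and 4 with rescaled FPKM. With a library left out, glucose against PBS J and K ranged from -0.06 to 0.56 for Csf1r and from -0.21 to 0.23 for Ccr2, and glucose with lipid against its PBS pair from -0.32 to 3.08 for Csf1r, -0.15 to 2.78 for Cd14 and -0.11 to 3.15 for Ccr2. The fit of 4 against 4 ranged from -0.04 to 1.27 for Ccr2. PBS H and I against J and K ranged from -0.02 to 0.19 for Lyz2, -0.37 to 0.19 for Csf1r and -0.23 to 0.09 for Cd14. The difference of effects ranged from -0.07 to 3.29 for Lyz2, -0.57 to 2.83 for Csf1r, -0.44 to 2.49 for Cd14, -0.53 to 1.47 for Mpeg1 and -0.12 to 3.14 for Ccr2.

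Counts of called genes were less stable, and the cause was not tested. Glucose against PBS J and K gave 18 higher with a pseudocount of 0.1, 7 without the trend and 19 with rescaled FPKM, and 3 lower with all 4 PBS libraries. Glucose with lipid against its PBS pair gave 1 higher with no filter, and 27 higher with PBS J and K or with all 4 PBS libraries (1 lower with PBS J and K). The 4 against 4 gave 16 higher and 1 lower with no filter, and 19 higher and 1 lower without the trend. The PBS pairs gave 1 higher with no filter, 2 higher and 2 lower without the trend, and 2 lower with a pseudocount of 0.1. The difference of effects gave 3 higher and 2 lower with the other PBS pairs. Alternatives for the PBS pairs and the difference of effects were chosen after seeing the data. With a library left out, counts ranged from 7 to 27 higher and 1 to 5 lower for glucose, 1 to 254 and 2 to 17 for glucose with lipid, 8 to 32 and 0 to 3 for 4 against 4, 2 to 12 and 1 to 3 for the PBS pairs, and 1 to 123 and 1 to 18 for the difference of effects. A replicate block on letters H and I gave 2 lower genes for glucose, 2 lower for the PBS pairs, 2 higher for the difference of effects, and 9 higher for glucose with lipid, counted over all tested genes; none of the 8 genes was called. The H minus I deviations of glucose with lipid and of PBS correlated at 0.0660 over 11931 genes, so the letters were not taken to pair libraries; replicate 1 of glucose with lipid enters this value, and whether the letters mark a shared day was not tested. Groups of 2, FPKM without counts, and levels near 1 FPKM limit what could be detected for Cd14, Ccr2 and Mpeg1.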

Other observations

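Elane and Mpo, outside the 8, showed the same split between libraries of glucose with lipid, but most genes of their list did not. For the 17 tested lysozyme, granule and pore genes, replicate 1 minus replicate 2 had a median of 0.46 on the log2 scale. Of these, 3 differed by more than 1. In replicates 1 and 2, Plac8 had 532.4 and 373 FPKM, Ctsd 505.1 and 315.6 FPKM, and Prtn3 226.1 and 173.7 FPKM. Elane, the neutrophil elastase of granulocyte precursors, had 475.8 and 18.2 FPKM in glucose with lipid and 12.5 and 2.02 FPKM in the PBS pair H and I (log2 difference 3.90 ± 1.67, adjusted p = 0.419 in limma; 1.59 ± 1.49 without replicate 1). Mpo, the peroxidase of granulocyte and monocyte precursors, had 649.5 and 110.9 FPKM in glucose with lipid and 197.1 and 120.2 FPKM in the PBS pair H and I (0.80 ± 0.72, adjusted p = 0.708; -0.47 ± 0.40 without replicate 1).

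S1pr1, a receptor that guides leukocytes out of tissues, stood at 25.9 and 23.4 FPKM in glucose and 7.84 and 11.01 FPKM in the PBS pair J and K. Its log2 difference was 1.31 ± 0.17, with an adjusted p of 0.0523 in limma with all 8 libraries and of 0.0491 without replicate 1 of glucose with lipid. The level was 25.1 and 25.6 FPKM in glucose with lipid and 15.6 and 16.6 FPKM in the PBS pair H and I. It was chosen after its values were seen, as was Elane.

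In the 4 treated libraries set against the 4 PBS libraries, 2 of the 13 erythroid markers were called higher in limma. These were the globin genes Beta-s and Hba-a1, which mark red cell precursors (log2 differences of 1.61 ± 0.22 and 1.57 ± 0.19, adjusted p of 0.0226 and 0.0115). Without replicate 1 of glucose with lipid the differences were 1.37 ± 0.14 and 1.70 ± 0.18. Beta-s had 47.6 and 62.5 FPKM in glucose and 24.4 and 19.4 FPKM in the PBS pair J and K. In glucose with lipid it had 945.2 and 515.4 FPKM, and in the PBS pair H and I 201 and 166.3 FPKM. Not all globin genes were higher in glucose than in PBS J and K. Hbb-b2 had 2.31 and 0.0321 FPKM in glucose and 109.9 and 38.9 FPKM in PBS J and K. Hbb-b1 had 206.1 and 205.5 FPKM against 406.1 and 205.9 FPKM, and Hba-a2 12.1 and 19.3 FPKM against 7.32 and 7.95 FPKM. Hbb-b2 and Hba-a2 were chosen after their values were seen. Within glucose with lipid, Hba-a1 and Hba-a2 had 373.6 and 751.7 FPKM in replicate 1, but 667.8 and 18.9 FPKM in replicate 2. How fragments were split between globin genes of similar sequence was not tested, so values of single globin genes are uncertain. The control pairs, H and I minus J and K, differed by 3.01 ± 0.28 for Beta-s and 2.77 ± 0.26 for Hba-a1 (adjusted p = 0.0173 for each).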
